A study of Mus musculus with 16 samples.

Results

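The cadherin superfamily genes of the early mouse face and brain are described here across neural, surface epithelial and mesenchymal tissue. Members were chosen by symbol: numbered Cdh genes, Pcdh genes, Celsr, Fat and Dchs genes, leaving out Cdh1 and Cdh5. The rule found 32 members among 15876 genes, made up of 11 classical cadherins, Cdh13, 3 Celsr genes, 4 Fat and Dchs genes, 11 unclustered protocadherins and 2 clustered protocadherins. Total RNA of untreated CD1 embryos was sequenced in 16 libraries, 1 for each region and stage (E, embryonic day). The neural epithelium at E10.5 had 3 libraries (lateral prominence, and those labelled central and dorsal control). The neural epithelium at E8.5 also had 3 (caudal brain, floor plate and non-floor plate). Surface epithelium had 2 libraries (epidermal ectoderm at E9.5, olfactory pit at E10.5). The mesenchymal class had 8 libraries by label: E8.5 mesoderm, E9.5 cranial mesenchyme, the mandibular and maxillary arches at E9.5 and at E10.5, and the lateral and medial nasal prominences at E10.5. Regions stand in for replicates within a class, so each p-value rests on the spread between libraries, estimated over all classes together. That spread mixes regions with stages in the mesenchymal and surface classes. How many embryos gave each library is not given in the sources used here. Arches and prominences carry an epithelial cover as well as mesenchyme, and whether it was removed is not given either.

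Cadherins are calcium-dependent adhesion proteins of the cell surface. Classical cadherins bind their like on neighbouring cells and anchor to actin through catenins, and tissues that separate in the embryo often carry different ones. The seven-pass Celsr proteins orient cells within an epithelial sheet. The giant Fat and Dchs proteins bind each other and act on planar polarity and Hippo signalling, and protocadherins mediate weaker, more selective contacts that are best known in the nervous system.

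The deposited values are ratios in which each gene was divided by its own median over the 16 libraries. A level here is a multiple of the smallest value that gene had, so a level of 1 is the lowest value seen and levels are compared between libraries only, never between genes. Many low values of a gene were identical, as after raising to a floor, so a level of 1 does not show absence. Libraries were shifted against each other by log2 -0.83 (E10.5 maxillary arch) to 0.39 (E8.5 mesoderm) in the median gene, and fitted log2 differences are relative to that shift, while levels are as deposited. In bulk tissue, fewer cells of a type and less RNA per cell cannot be told apart.

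The library labelled medial nasal prominence went against its label. Its mean log2 level over 10 neural progenitor markers was 3.68, against 0.0275 to 1.29 in the other 7 mesenchymal libraries and 1.85 to 3.39 in the 6 neural libraries. Its mean over 13 mesenchyme markers was 0.00237, against 2.25 to 3.14 in the other 7, and Twist1, a mesenchymal transcription factor, was at its lowest value there. Counts of called members, and the differences of members from mesenchyme, are therefore given with and without it, and for the partner genes the calls that change without it are named. The column headers of the libraries labelled central and dorsal control carry each other's name. Both are E10.5 neural epithelium, so no class comparison depends on which is which.

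Of the 32 members, 26 were above their lowest value in at least 3 libraries and were tested. Those not tested were Cdh10, Cdh19, Pcdh8, Pcdh15, Pcdh20 and Pcdha1, of which the highest level was 3.51, for Pcdha1 in the olfactory pit. The number of members at a level above 2 was 10 to 14 in neural libraries, 13 and 14 in surface epithelium and 7 to 12 in the mesenchymal libraries other than the one labelled medial nasal prominence, which had 18. The share of all genes at a level above 2 also varied. It was 11.1% to 19.6% in the other 3 E10.5 mesenchymal libraries, where 7 or 8 members were above 2, and 43.3% to 47.1% in the E8.5 and E9.5 mesenchymal ones. It was 24.7% to 33.7% in E10.5 and 37.3% to 44.6% in E8.5 neural libraries, 46.5% and 45.6% in surface epithelium, and 45.1% in that labelled medial nasal prominence. No member had a level of 5 or more that was also at least 4-fold above every other library.

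**Figure D1:**
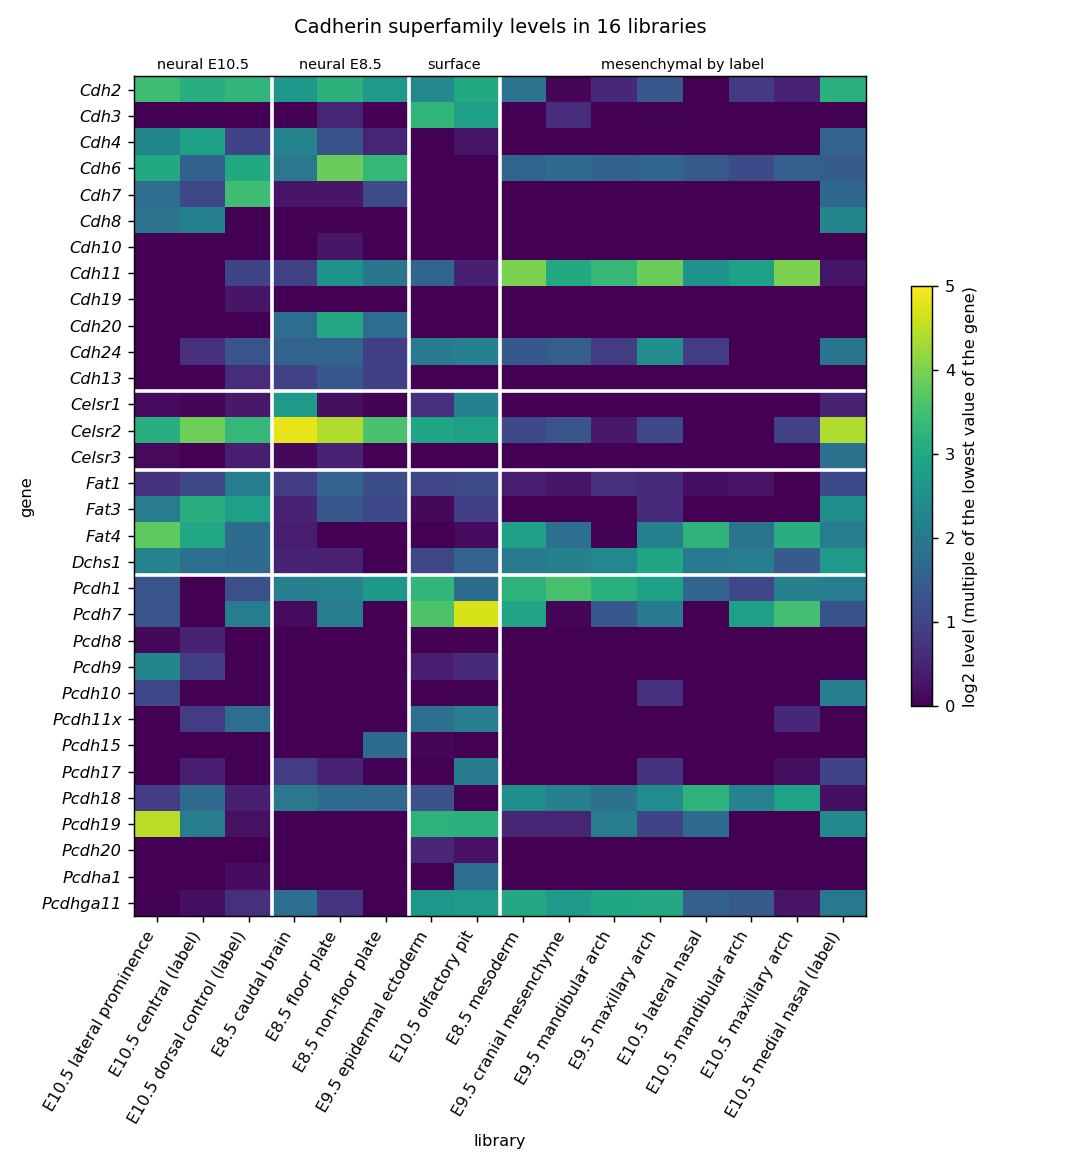
Log2 level of the 32 members (rows, by family) in the 16 libraries (columns, by tissue class); the darkest colour is the lowest value of that gene. Cdh2 and Celsr2 are bright across the neural columns, Cdh3 in both surface columns and Cdh11 in the mesenchymal columns apart from the last, labelled medial nasal prominence.

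Celsr2, Cdh2, Cdh6 and Cdh20 were higher, and Dchs1 and Pcdhga11 lower, in neural epithelium than in the mesenchymal libraries. With all libraries, 4 of 26 tested members (15.4%) were higher in neural epithelium, against 1.08% of all genes tested. Lower were 2 members (7.69%), against 1.58% of all genes. A member was called at a Benjamini-Hochberg adjusted p under 0.05 over all genes and a fold of at least 2. Without the library labelled medial nasal prominence, 6 of 25 tested members were higher, with Cdh4 and Fat3 added, against 2.13% of all genes, and 3 were lower, with Cdh11 added, against 2.66%. Both counts of higher members include Cdh20. It passed the filter of 3 libraries above the lowest value only through the E8.5 neural ones, where it is high. Cdh4, added in the second count, passed that filter only through the neural libraries, where it is high. For both genes the choice for the test and the difference rest on the same values. The median log2 difference of the members was 0.18, against -0.04 over all genes.

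Cdh2 encodes N-cadherin, the main classical cadherin of neural epithelium. Its level was 10.9, 8.85 and 9.78 in the E10.5 neural libraries (lateral prominence, central, dorsal control) and 6.36, 9.27 and 6.51 in the E8.5 ones (caudal brain, floor plate, non-floor plate). In the mesenchymal libraries it was 1 to 3.77 with a median of 1.501, apart from the one labelled medial nasal prominence at 9.07. All 6 neural libraries thus stood above the other 7 mesenchymal ones, the highest of which was the E8.5 mesoderm. The fitted difference was 1.97 ± 0.39 on the log2 scale (SE, 6 against 8 libraries), a 3.93-fold change with adjusted p = 0.0117. It was 2.23 ± 0.32 with adjusted p = 0.000411 without the library labelled medial nasal prominence.

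Celsr2 is one of the vertebrate relatives of the fly planar polarity gene flamingo. Its level was 8.89, 14.9 and 10.1 in E10.5 neural libraries and 27.99, 21.2 and 11.8 in E8.5 ones. In the 7 mesenchymal libraries it was 1 to 2.50 with a median of 1.94, while the library labelled medial nasal prominence had 21.3. The 2 ranges did not overlap once that library was set aside. The difference was 2.65 ± 0.50 (log2, SE), or 6.28-fold, with adjusted p = 0.0093, and 3.07 ± 0.33 with adjusted p = 3.38e-05 without that library. Celsr1 was high in single libraries, at 6.51 in E8.5 caudal brain and 4.56 in the olfactory pit, and between 1 and 1.59 elsewhere. Celsr3, known from axon guidance, reached 3.70 in the library labelled medial nasal prominence and at most 1.39 in the others.

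Cdh6 and Cdh20 are type II classical cadherins of the neural tube and neural crest. Cdh6 had levels of 8.22, 2.95 and 8.26 in E10.5 neural libraries and 3.94, 14.6 and 10.004 in E8.5 ones, against 2.18 to 3.38 in the 7 mesenchymal libraries and 2.74 in the one labelled medial nasal prominence. The central library lay within the mesenchymal range, and the other 5 neural libraries lay above it. The difference was 1.24 ± 0.31 (log2, SE; adjusted p = 0.0359), and 1.19 ± 0.33 without the library labelled medial nasal prominence (adjusted p = 0.0372). It missed the threshold when any of 11 libraries was left out, with adjusted p from 0.0506 to 0.0987: the lateral prominence, dorsal control, floor plate, non-floor plate, epidermal ectoderm, olfactory pit, mesoderm, cranial mesenchyme, both E9.5 arches and the E10.5 mandibular arch. The Cdh6 call was also lost with stage as a covariate (1.17, adjusted p = 0.111, and 0.101 without the library labelled medial nasal prominence), within E10.5 (0.94, adjusted p = 0.479, and 0.287 without it) and on log2 of level plus 1 (adjusted p = 0.0627). Cdh20 was above its lowest value only in the E8.5 neural libraries, at 3.49 (caudal brain), 8.11 (floor plate) and 3.47 (non-floor plate), which makes it at least 3.47-fold higher there as deposited. Its call against mesenchyme (adjusted p = 0.0491, and 0.0489 without the library labelled medial nasal prominence) held in 3 of the 13 fits with 1 library left out in which it could be tested, and was lost without the mesoderm, cranial mesenchyme, either E9.5 arch, lateral nasal prominence, any E10.5 neural or either surface library (adjusted p from 0.0608 to 0.115). With stage as a covariate the Cdh20 difference was 0.59 (adjusted p = 0.506, and 0.519 without the library labelled medial nasal prominence). It was under 2-fold on log2 of level plus 1, and both other filters on low values ended the call (adjusted p = 0.0624 and 0.0689).

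**Figure D2:**
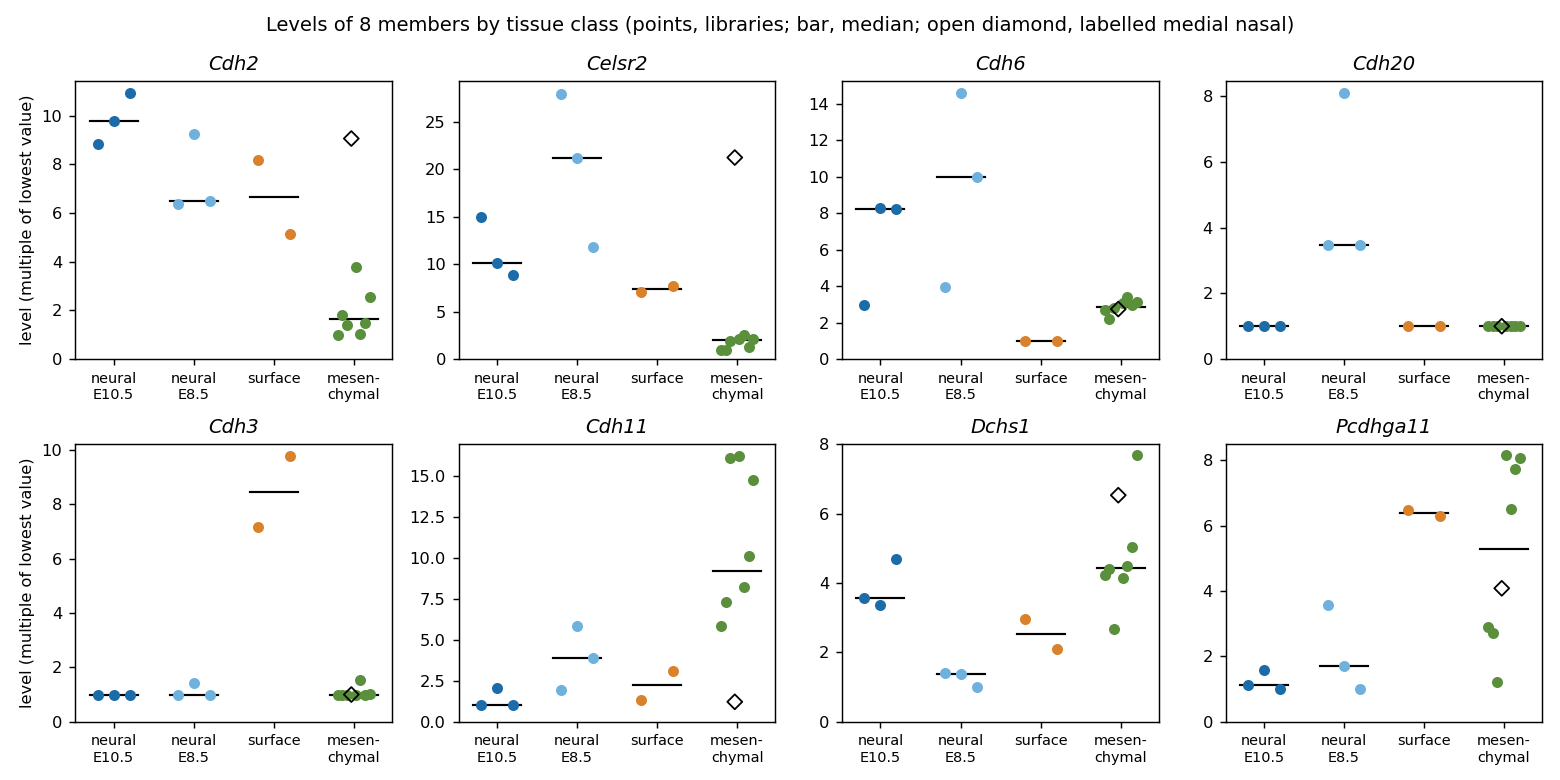
Level (vertical axis, multiple of its smallest value) of 8 members in each library, by tissue class; points are libraries, bars are class medians (over all 8 mesenchymal libraries) and the open diamond is the library labelled medial nasal prominence. For Cdh2 and Celsr2 the diamond, at 9.07 and 21.3, lies within the neural range, while the other mesenchymal points stay at or under 3.77 and 2.50.

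Cdh4, or R-cadherin, had levels of 4.92, 7.22 and 2.04 in E10.5 neural libraries and 4.73, 2.40 and 1.44 in E8.5 ones, and stood at its lowest value in all 7 mesenchymal libraries. The library labelled medial nasal prominence had 3.03. Each neural library was above the 7, so the gene was at least 1.44-fold higher in neural epithelium as deposited (adjusted p = 0.0583 with all libraries and 0.0158 without the one labelled medial nasal prominence). Fat3, a giant Fat-family cadherin studied in neuron migration, had levels of 4.29, 8.75 and 7.05 in E10.5 and 1.40, 2.52 and 2.14 in E8.5 neural libraries, against 1 to 1.54 in the 7 mesenchymal libraries and 5.59 in the one labelled medial nasal prominence. The caudal brain fell inside the range of the 7, below the E9.5 maxillary arch. Its difference was 1.39 ± 0.38 (adjusted p = 0.056) with all libraries and 1.64 ± 0.29 (adjusted p = 0.00219) without that library.

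The regulatory stretches before 4 members that changed are shown so that they can be read beside the repressor results further on. They are the 250 bases before the gene start in the RefSeq annotation of GRCm38.p6, 5′ to 3′ on the strand of the gene. Capitals mark CACCTG in either orientation (CACCTG or CAGGTG), the E-box that Snail and Zeb repressors are known to bind, in human and mouse, in the E-cadherin promoter.
Celsr2, chr3:108415580-108415829, minus strand: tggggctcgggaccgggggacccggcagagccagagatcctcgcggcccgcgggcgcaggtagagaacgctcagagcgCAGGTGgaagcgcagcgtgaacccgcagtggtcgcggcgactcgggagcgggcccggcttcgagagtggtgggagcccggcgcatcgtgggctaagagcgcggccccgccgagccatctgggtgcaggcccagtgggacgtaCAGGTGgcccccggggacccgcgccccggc
Cdh6, chr15:13173676-13173925, minus strand: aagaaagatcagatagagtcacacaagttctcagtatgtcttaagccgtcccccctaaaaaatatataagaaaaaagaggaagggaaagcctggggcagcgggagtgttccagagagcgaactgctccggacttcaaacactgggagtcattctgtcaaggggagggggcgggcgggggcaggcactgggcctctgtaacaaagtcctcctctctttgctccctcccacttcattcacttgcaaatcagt
Fat3, chr9:16502055-16502304, minus strand: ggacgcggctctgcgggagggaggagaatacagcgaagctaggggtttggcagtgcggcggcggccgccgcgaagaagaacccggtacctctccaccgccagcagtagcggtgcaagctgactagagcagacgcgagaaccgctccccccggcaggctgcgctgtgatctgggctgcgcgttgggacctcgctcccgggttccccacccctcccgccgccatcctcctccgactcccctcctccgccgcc
Fat4, chr3:38886690-38886939, plus strand: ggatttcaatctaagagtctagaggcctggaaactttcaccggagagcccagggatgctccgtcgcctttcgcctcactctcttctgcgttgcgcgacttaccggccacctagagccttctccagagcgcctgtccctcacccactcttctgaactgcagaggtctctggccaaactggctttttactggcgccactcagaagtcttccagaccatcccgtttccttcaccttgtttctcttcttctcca
The motif stood at 2 places in the Celsr2 stretch, starting 172 and 30 bases before the gene start, and at none in the other 3. Promoters were matched for 20 of the 32 members, with 23 start sites, of which 5 held the motif, at Cdh7, Celsr2, Fat1 and Pcdh15. Over all 32851 promoters of that length the share was 17.2%. The median share of the bases G and C was 60.8% in member promoters, against 52.4% over all promoters. It was 75.2% in the Celsr2 stretch. The part of base composition in the motif counts was not tested. A match describes letters only.

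Genes lower in neural epithelium came from several families. Cdh11, a type II cadherin known as a mesenchymal one, had levels of 1, 1.01 and 2.04 in E10.5 neural libraries and 1.95, 5.83 and 3.88 in E8.5 ones. In the 7 mesenchymal libraries it was 5.84 to 16.2 with a median of 10.1, while the one labelled medial nasal prominence had 1.21. The floor plate, at 5.83, came next to the lowest of the 7, the lateral nasal prominence, and it also had the highest mean log2 level of mesenchyme markers among the neural libraries (0.61, against 0 to 0.188 in the other 5). Their part in the Cdh11 level was not tested. The difference was -1.96 ± 0.53 (adjusted p = 0.0515) with all libraries and -2.40 ± 0.34, or 5.27-fold lower, without the one labelled medial nasal prominence (adjusted p = 0.000319).

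Dchs1, a ligand of Fat4, had levels of 4.69, 3.56 and 3.36 in E10.5 neural libraries and 1.39, 1.37 and 1 in E8.5 ones, against 2.69 to 7.69 (median 4.39) in the 7 mesenchymal libraries and 6.54 in the one labelled medial nasal prominence. The E10.5 neural libraries overlapped the mesenchymal range and the E8.5 ones lay below it. The difference was -1.16 ± 0.20 (adjusted p = 0.00577), and -1.14 ± 0.21 without that library (adjusted p = 0.00332). With stage as a covariate it was -0.75 (adjusted p = 0.108; 0.0606 without that library), and within E10.5 -0.38 (adjusted p = 0.618; 0.408 without it). Pcdhga11, of the gamma protocadherin cluster, had 1.02, 1.14 and 1.59 in E10.5 and 3.56, 1.71 and 1 in E8.5 neural libraries, against 1.21 to 8.15 (median 6.50) in the 7 mesenchymal libraries and 4.08 in the one labelled medial nasal prominence. The 3 E10.5 libraries among the 7, the lateral nasal prominence at 2.90, the mandibular arch at 2.71 and the maxillary arch at 1.21, lay inside the neural range, which reaches 3.56 in caudal brain. The difference was -1.59 ± 0.28 (adjusted p = 0.00574), with all libraries, and -1.65 ± 0.28 (adjusted p = 0.0017) without the last. On values as deposited it was -1.54 (adjusted p = 0.0818). Within E10.5 it was -1.26 (adjusted p = 0.394), and -1.24 without the library labelled medial nasal prominence (adjusted p = 0.0712). On log2 of level plus 1 neither the Dchs1 nor the Pcdhga11 call held. Genes of this cluster share their last exons, so reads of 50 bases may have been divided between them, and the value for 1 of them is uncertain.

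**Figure D3:**
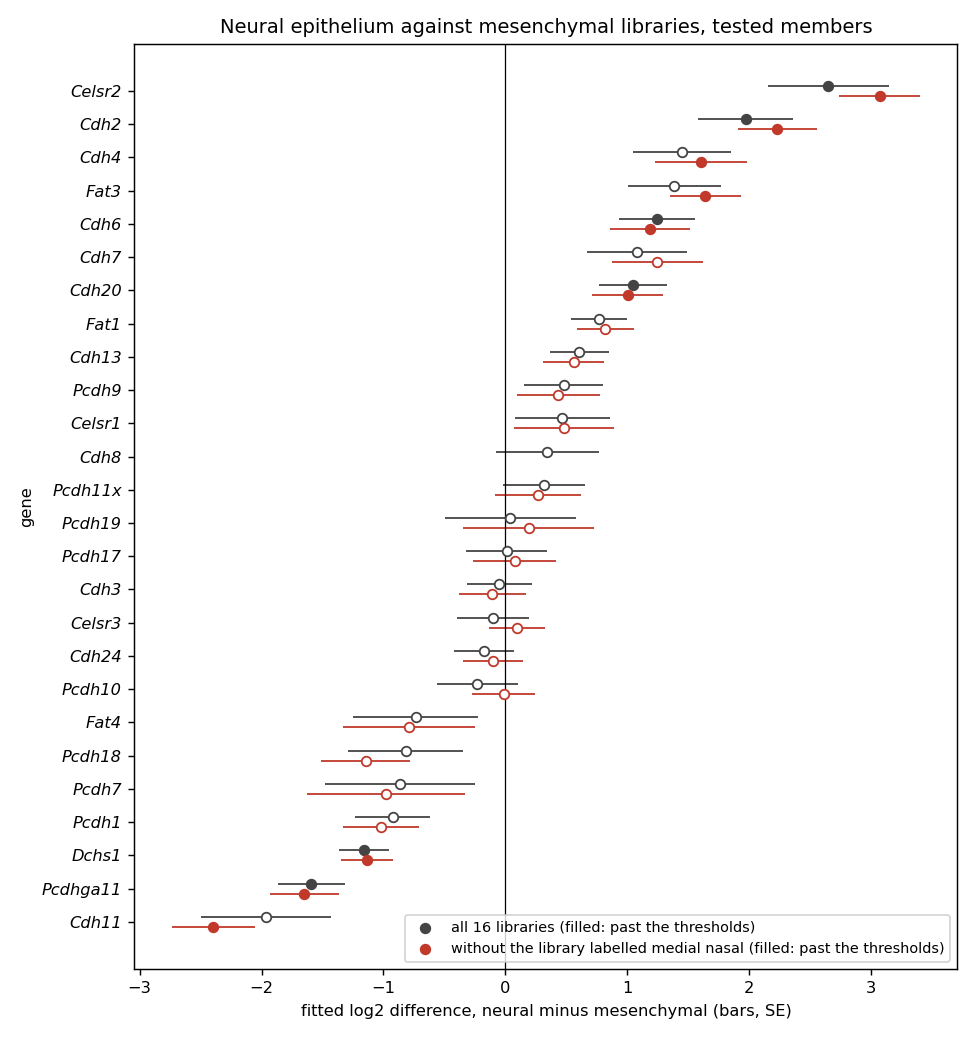
Fitted log2 difference, neural minus mesenchymal (horizontal axis; bars, SE), for the tested members (rows), with all 16 libraries and without the library labelled medial nasal prominence; filled points passed both thresholds. Cdh4, Fat3 and Cdh11 pass only in the second fit, and the values of Cdh20, and of Cdh4 in the second fit, rest on mesenchymal libraries at the lowest value.

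Within E10.5 alone, 0 of 10819 genes were called by limma with all 4 mesenchymal libraries (3 neural against 4), 1102 genes and 9 of 23 members having an unadjusted p under 0.05. Without the library labelled medial nasal prominence, 563 of 10204 genes were called, 2.32% higher and 3.19% lower. Of 20 members, 3 were then higher, Cdh2 (2.40 ± 0.33, adjusted p = 0.00668), Celsr2 (2.69 ± 0.42, adjusted p = 0.0108) and Fat3 (2.23 ± 0.39, adjusted p = 0.016), and 2 were lower, Cdh11 (-3.25 ± 0.49, adjusted p = 0.00906) and Pcdh18 (-2.21 ± 0.41, adjusted p = 0.0209). Fat3 was at its lowest value in every mesenchymal library of this fit, so it was at least 4.29-fold higher as deposited. It passed the filter within E10.5 only through the neural libraries, where it is high. Its choice for this fit and its difference rest on the same values. The neural libraries had 1.88, 3.36 and 1.35 for Pcdh18, a delta protocadherin, against 9.39, 4.67 and 7.45 in the lateral nasal prominence, mandibular arch and maxillary arch, and 1.15 in the library left out. Blood RNA differed between classes as well: mean log2 levels of 8 red cell markers were 1.83 to 2.16 in E10.5 neural and 0.0288 to 0.251 in E8.5 neural libraries, against 1.91 to 5.73 in mesenchymal ones. Mean log2 levels of 8 endothelial markers were 0 to 0.357 in neural libraries, against 0.617 to 2.97. Their part in these differences was not tested.

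Surface epithelium carried Cdh3, or P-cadherin, as its one called member. Its level was 9.78 in epidermal ectoderm and 7.14 in the olfactory pit, against 1 to 1.54 in the 8 mesenchymal libraries, where cranial mesenchyme was highest. The groups did not overlap. The difference, surface epithelium minus mesenchymal, was 2.66 ± 0.39 (log2, SE, 2 against 8 libraries), or 6.31-fold, with adjusted p = 0.00245, and 2.60 ± 0.40 without the library labelled medial nasal prominence (adjusted p = 0.00265). That was 1 of 26 members higher (3.85%), against 0.545% of all genes, and 0 lower, against 0.156%. In this limma fit 10 of the 26 members, and 1061 of all 12851 genes tested, had an unadjusted p under 0.05. E-cadherin, Cdh1, stands outside the rule but shows the same libraries: 10.3 and 10.1 in epidermal ectoderm and olfactory pit, 1.19 in the library labelled central and 1 in the other 13.

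Without the library labelled medial nasal prominence, 2 of 25 members were also lower in surface epithelium, against 0.678% of all genes, while Cdh3 remained the one that was higher, against 1.03%. Cdh11 had 3.09 in epidermal ectoderm and 1.35 in the olfactory pit, both below the lowest of the 7 mesenchymal libraries at 5.84 (-2.72 ± 0.49, adjusted p = 0.00764; -2.29 ± 0.78, adjusted p = 0.285, with all libraries). Pcdh18 had 2.35 and 1, against 3.71 to 9.39 (-2.22 ± 0.53, adjusted p = 0.0428; -1.90 ± 0.69, adjusted p = 0.344, with all libraries). Epidermal ectoderm, the higher of the surface libraries for both genes, also had the higher mean log2 level of mesenchyme markers, 1.51 against 0.0799 in the olfactory pit, and the part of these cells was not tested.

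Several members had both surface libraries above the 7 mesenchymal ones without passing the test. Pcdh7, a delta protocadherin, reached 25.8 in the olfactory pit and 12.1 in epidermal ectoderm, against 1 to 11.4 in mesenchymal libraries, with the E10.5 maxillary arch highest (2.07 ± 0.91, adjusted p = 0.533, and 0.462 without the library labelled medial nasal prominence). Pcdh19, a delta protocadherin known in humans from an epilepsy of early childhood, had 9.35 and 8.97, against 1 to 5.29, highest in the library labelled medial nasal prominence (1.83 ± 0.79, adjusted p = 0.511, and 0.298 without it). The highest Pcdh19 level over all libraries was in neural epithelium, at 22.3 in the E10.5 lateral prominence. Pcdh11x had 3.53 and 4.42, against 1 to 1.48 (1.59, adjusted p = 0.217, and 0.175 without that library), and passed on values as deposited (1.91, adjusted p = 0.00569) and on log2 of level plus 1. Cdh2 and Celsr2, at 5.12 and 8.17 and at 7.72 and 7.04 in epidermal ectoderm and olfactory pit, lay above the 7 mesenchymal libraries but did not pass, either with all libraries (Cdh2 1.32 ± 0.57, adjusted p = 0.524; Celsr2 1.41 ± 0.73, adjusted p = 0.687) or without the one labelled medial nasal prominence (Cdh2 1.58 ± 0.47, adjusted p = 0.114; Celsr2 1.83 ± 0.48, adjusted p = 0.0675). Without that library Celsr2 passed with stage as a covariate (1.87, adjusted p = 0.036) and on values as deposited (2.19, adjusted p = 0.0498). Both surface libraries also had neural progenitor markers at a mean log2 level of 2.25 and 2.51, and 10 neuron markers at 1.004 and 3.06, and the part of such cells was not tested.

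Neural and surface epithelium differed in Cdh6 and Cdh3. Cdh6 stood at its lowest value in both surface libraries, against 2.95 or more in all 6 neural libraries, so it was at least 2.95-fold higher in neural epithelium as deposited (adjusted p = 0.00444, 6 against 2 libraries). Both surface libraries also lay below every mesenchymal library for Cdh6, at 2.18 to 3.38. That limma difference did not pass (adjusted p = 0.0848, and 0.0545 without the library labelled medial nasal prominence). It passed with stage as a covariate without that library. Cdh3 was at 1 in 5 neural libraries and 1.44 in the floor plate, against 9.78 and 7.14 in surface epithelium. Its difference, neural minus surface, was -2.71 ± 0.40 (adjusted p = 0.00366). These were 1 of 26 members higher, against 0.0934% of all genes, and 1 lower, against 0.436%. With the epidermal ectoderm left out the Cdh3 call was lost (adjusted p = 0.0616), and the Cdh6 call was lost without the epidermal ectoderm (adjusted p = 0.112) or the olfactory pit (adjusted p = 0.0974). Without the library labelled medial nasal prominence, Pcdhga11 was also lower in neural epithelium (-1.82 ± 0.42, adjusted p = 0.0468, against 0.0576 with it), with levels of 1 to 3.56, against 6.29 in epidermal ectoderm and 6.47 in the olfactory pit. Then 2 of 25 members were lower, against 0.789% of all genes, and 1 was higher, against 0.229%.

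In neural epithelium Fat4, Fat3 and Dchs1 were higher, and Cdh20 lower, at E10.5 than at E8.5. These were 3 of 26 members (11.5%) higher, against 2.16% of all genes, and 1 (3.85%) lower, against 2.30%. Fat4, the receptor of Dchs1, had 13.5, 7.94 and 3.39 in the E10.5 libraries (lateral prominence, central, dorsal control), against 1.30, 1 and 1 in the E8.5 ones (caudal brain, floor plate, non-floor plate). The difference was 3.08 ± 0.77 (log2, SE, 3 against 3; adjusted p = 0.0372), or 8.44-fold. For Fat3, whose levels are given above, it was 2.08 ± 0.58 (adjusted p = 0.0482), and for Dchs1 1.99 ± 0.31 (adjusted p = 0.0123). The 3 E10.5 libraries lay above the 3 E8.5 libraries for each of these genes. Fat1, of the same family, did not pass (0.44 ± 0.35, adjusted p = 0.447). Cdh20 was at its lowest value in all E10.5 libraries, against 3.47 to 8.11 at E8.5, and so at least 3.47-fold lower at E10.5 as deposited (adjusted p = 0.0288). Cdh20 passed the filter of 3 libraries above the lowest value only through those E8.5 ones. Its choice for the test and its difference thus rest on the same values.

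These stage differences compare different regions of the neural tube as well as stages, and the 2 cannot be told apart. Markers moved too: the mean log2 level of neuron markers was 1.24 to 1.73 at E10.5, against 0.585 to 1.06 at E8.5. Neural progenitor markers were at 3.02 to 3.39 at E10.5, against 1.85 to 2.37 at E8.5. The 3 measured of 6 muscle markers were at 0 to 0.0159, against 0.46 to 1.56, and red cell markers differed as given above. Their part was not tested. On values as deposited, with the median gene shifted by -0.37, Fat4 (2.71, adjusted p = 0.061) and Fat3 (1.71, adjusted p = 0.115) missed the threshold, while Dchs1 (1.62, adjusted p = 0.0489) and Cdh20 passed. On log2 of level plus 1 the calls of Dchs1 (adjusted p = 0.1), Fat4 and Fat3 were lost, and only that of Cdh20 held. The Fat4 call was lost without the lateral prominence, central, or any E8.5 neural library (adjusted p from 0.083 to 0.114). The Dchs1 call was lost without the lateral prominence (adjusted p = 0.0511) or the non-floor plate (adjusted p = 0.0628). The Cdh20 call was lost without any E10.5 neural library (adjusted p from 0.0714 to 0.0843). The Fat3 call was lost in 12 of 16 fits (adjusted p from 0.0534 to 0.152), and held without the mesoderm, cranial mesenchyme, E10.5 maxillary arch or the library labelled medial nasal prominence. With the last left out, Cdh7 was also higher at E10.5 (1.90 ± 0.55, adjusted p = 0.0459, against 0.0752 with it), making 4 of 25 members higher, against 3.75% of all genes, and 1 lower, against 3.71%.

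**Figure D4:**
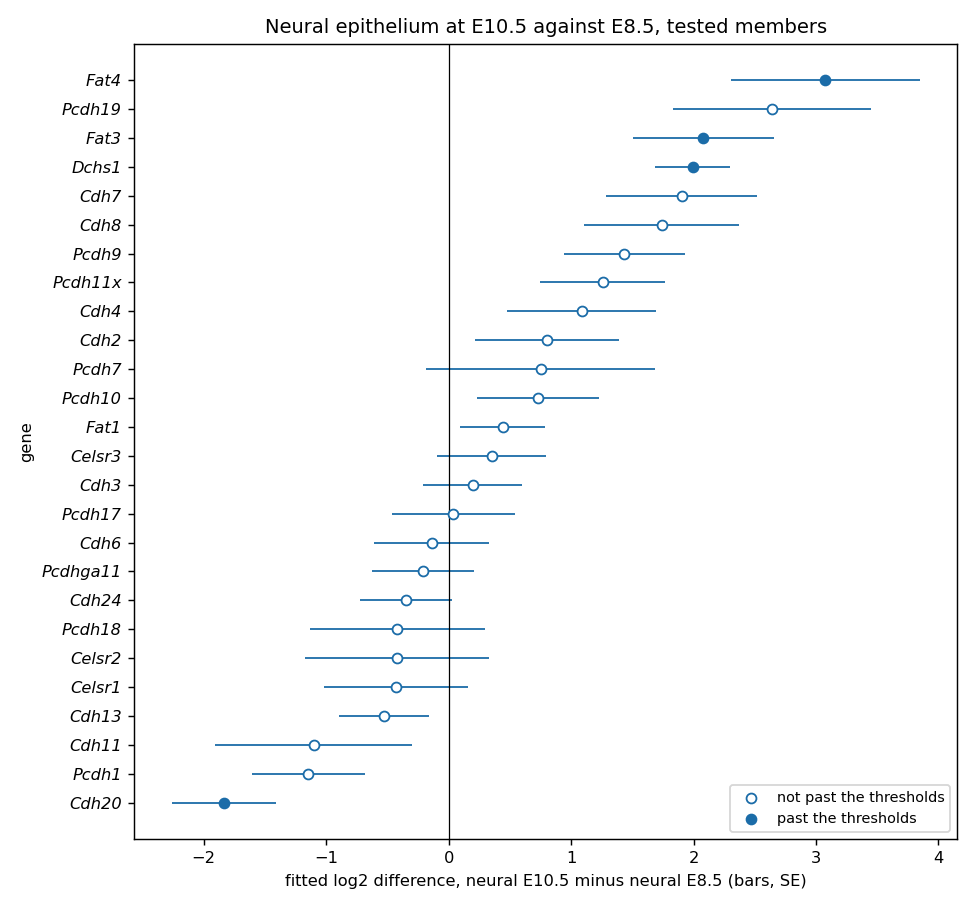
Fitted log2 difference, neural epithelium at E10.5 minus E8.5 (horizontal axis; bars, SE), for the 26 tested members (rows); filled points passed both thresholds. Fat4, Fat3 and Dchs1 are filled on the right at 3.08, 2.08 and 1.99, and Cdh20, at its lowest value in all E10.5 libraries, is filled on the left.

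Other neural members varied between the E10.5 regions. Cdh7, a type II cadherin of the neural tube and crest, had 11.01 in the library labelled dorsal control, against 3.46 in the lateral prominence and 2.12 in the one labelled central, and 1.23 to 2.21 at E8.5. Cdh8, a type II cadherin of the brain, had 3.76 in the lateral prominence and 4.61 in the central library and was at its lowest value in the dorsal control and all E8.5 libraries. Cdh4 was likewise highest in the library labelled central at 7.22. Pcdh19 had 22.3 in the lateral prominence, against 4.32 and 1.17 in the other 2 and 1 in all E8.5 libraries (2.64 ± 0.81, adjusted p = 0.0662, and 0.0505 without the library labelled medial nasal prominence). Pcdh9 had 4.85 in the lateral prominence, 1.89 in the central library and 1 in the 4 other neural libraries. With 1 library per region none of these regional differences has a replicate check. The names central and dorsal control follow the labels here. The column headers give them the other way round, so the regional values of these libraries may be swapped.

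At E8.5 the floor plate, the ventral midline of the neural tube, and the non-floor plate differed in 0 of 6 members that reached a level of 5 in the higher of the 2, by 2-fold relative to the median gene, against 11.0% of such genes higher and 25.8% lower. As deposited 1 of the 6 was higher, Cdh20 at 8.11 against 3.47 (2.34-fold, and 1.90-fold relative to the median gene), where 16.2% were higher and 22.0% lower. Caudal brain against non-floor plate had 1 of 5 members higher, Celsr1 at 6.51 against 1.03 (5.24-fold), and 1 lower, Cdh6 at 3.94 against 10.004 (3.07-fold), where 8.18% of all such genes were higher and 24.8% lower. As deposited Celsr2 was also higher in caudal brain, at 27.99 against 11.8 (2.38-fold, and 1.97-fold relative), making 2 of 5 higher and 1 lower, where 11.6% were higher and 20.7% lower. The olfactory pit against epidermal ectoderm had 1 of 7 higher, Pcdh7 at 25.8 against 12.1 (2.34-fold), and 1 lower, Pcdh1 at 3.42 against 9.89 (2.63-fold), where 22.8% were higher and 14.2% lower. Each of these is a single pair of libraries, so no test was possible.

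Among the facial arches, Cdh11 and Fat4 were lower in the mandibular than in the maxillary arch at E10.5, at 7.31 against 16.1 (2.25-fold) and 3.78 against 8.73 (2.36-fold), which was 2 of 4 members in a comparison where 27.1% of such genes were lower and 39.6% higher. At E9.5, 1 of 6 members was lower in the mandibular arch, Cdh24 at 1.86 against 5.51 (2.90-fold), where 14.9% were lower and 7.75% higher. In the E9.5 arches, mandibular against maxillary, Cdh11 was at 10.1 against 14.7 (1.43-fold lower) and Fat4 at 1.02 against 4.56 (4.41-fold lower), although neither Fat4 level reached 5. Cdh24 was at its lowest value in both E10.5 arches. Each stage had 1 library per arch.

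Between stages the E10.5 arches were shifted by log2 -0.99 (mandibular) and -1.16 (maxillary) in the median gene against E9.5, so directions depend on the scale. Pcdh7 was higher at E10.5 on both scales: 7.13 against 2.58 in the mandibular arch (2.76-fold as deposited, 5.48-fold relative to the median gene) and 11.4 against 4.10 in the maxillary arch (2.79-fold and 6.23-fold). Pcdh1, of the same delta protocadherins, was lower in the mandibular arch at 2.09 against 8.99 (4.29-fold as deposited, 2.17-fold relative). Relative to the median gene, 1 of 5 members was higher and 1 lower in the mandibular arch, where 14.1% of such genes were higher and 52.4% lower. In the maxillary arch 4 of 8 were higher, Pcdh7, Fat4, Pcdh18 and Cdh11, and 2 lower, Cdh24 and Pcdhga11, where 10.7% were higher and 63.6% lower. As deposited the counts ran the other way in the maxillary arch, with 1 of 8 higher, Pcdh7, and 3 lower, Cdh24 (5.51-fold), Pcdhga11 (6.70-fold) and Dchs1 at 2.69 against 7.69 (2.86-fold), where 7.43% of such genes were higher and 83.1% lower. In the mandibular arch 1 of 5 was higher as deposited and 2 lower, Pcdh1 and Pcdhga11 at 2.71 against 7.72 (2.85-fold), where 8.56% were higher and 75.2% lower. In the maxillary arch, Cdh11 at 16.1 against 14.7, Fat4 at 8.73 against 4.56 and Pcdh18 at 7.45 against 5.36 each differed by under 2-fold as deposited.

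The remaining members showed less. Cdh13, which lacks the intracellular part of a cadherin and is held by a lipid anchor, was above its lowest value only in neural libraries, at 1.55 in the dorsal control and 1.98, 2.61 and 1.93 in the E8.5 ones (0.61, adjusted p = 0.2, against mesenchyme, and 0.56, adjusted p = 0.212, without the library labelled medial nasal prominence). Fat1, an epithelial and actin-linked Fat gene, had 1.63 to 4.34 in neural libraries, against 1 to 1.64 in the 7 mesenchymal ones and 2.15 in the one labelled medial nasal prominence (0.77 ± 0.23, adjusted p = 0.0766, and 0.82 ± 0.23, adjusted p = 0.045, without it, under 2-fold). Pcdh1 had 1 to 6.36 in neural libraries, against 2.09 to 11.6 in mesenchymal ones (-0.92 ± 0.31, adjusted p = 0.115, and -1.02 ± 0.31, adjusted p = 0.0586, without the one labelled medial nasal prominence). Pcdh10 was highest at 4.52 in the library labelled medial nasal prominence, followed by 2.13 in the lateral prominence. Pcdh17 was highest in the olfactory pit at 4.15, and Pcdh8, whose protein acts in paraxial mesoderm, reached only 1.39.

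The partners of the members were read from lists chosen with earlier results of these data known. Their counts are therefore not read as results about the lists. Over all genes tested, 1.08% were higher and 1.58% lower in neural epithelium than in mesenchyme. For surface epithelium against mesenchyme the shares were 0.545% and 0.156%. They were 0.0934% and 0.436% for neural against surface epithelium, and 2.16% and 2.3% for neural E10.5 against E8.5. Of 11 catenin genes 10 were measured and 9 tested. In neural epithelium against mesenchyme 2 were higher, Ctnnd2, or delta-catenin (1.69 ± 0.44, adjusted p = 0.0449), and its relative Arvcf (1.498 ± 0.34, adjusted p = 0.0239), and 1 was lower, Jup, or plakoglobin (-1.61 ± 0.31, adjusted p = 0.00986). Jup was also lower in neural than in surface epithelium (-2.90 ± 0.46, adjusted p = 0.00583), at 1 to 2.22 against 10.3 and 13.4. The list median, neural minus mesenchymal, was 0.35, against -0.04 over all genes. Of 8 desmosomal genes 3 were measured and 2 tested, and both were higher in surface epithelium than in mesenchyme and lower in neural than in surface epithelium. Dsp, or desmoplakin, had 28.03 and 17.3 in epidermal ectoderm and olfactory pit, against 1 in all 8 mesenchymal libraries, and so was at least 17.3-fold higher (adjusted p = 0.000298). The desmosomal cadherin Dsg2 was 5.83-fold higher (adjusted p = 0.00677).

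Of 6 transcriptional repressors of cadherin genes, all tested, 2 were lower in neural epithelium than in mesenchyme, Twist1 and Snai1 (-2.06 ± 0.46, adjusted p = 0.0212). Twist1 was at its lowest value in all 6 neural libraries, against 16.7 to 28.5 in the 7 mesenchymal ones and 1 in the one labelled medial nasal prominence, so it was at least 16.7-fold lower than in those 7. Zeb1 was lower in surface epithelium than in mesenchyme (-2.55 ± 0.32, adjusted p = 0.000521). Zeb1 (2.58 ± 0.33, adjusted p = 0.000653) and Zeb2 (4.15 ± 0.72, adjusted p = 0.0105) were higher in neural than in surface epithelium. Zeb1 had 9.005 to 10.49 in E10.5 neural and 2.92 to 4.81 in E8.5 neural libraries, against 1.49 and 1 in surface epithelium, with 3.82 to 6.89 in the 7 mesenchymal libraries (neural E10.5 minus E8.5, 1.79 ± 0.33, adjusted p = 0.017). No binding was measured.

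Of 11 planar polarity partners of Celsr, all tested, Fzd3, a Frizzled receptor, was higher in neural epithelium than in mesenchyme (1.51 ± 0.32, adjusted p = 0.016) and Vangl2 was lower at E10.5 than at E8.5 in neural epithelium (-2.33 ± 0.64, adjusted p = 0.0478). The list median, neural minus mesenchymal, was -0.29. Of 12 partners of Fat and Dchs in Hippo signalling, Tead3, a transcription factor, was lower in neural epithelium than in mesenchyme (-1.12 ± 0.25, adjusted p = 0.0228) and than in surface epithelium (-2.22 ± 0.38, adjusted p = 0.0106), and Wwtr1, or TAZ, was higher at E10.5 in neural epithelium (1.98 ± 0.34, adjusted p = 0.0164). Of 7 sheddase genes, whose products cut cadherins at the membrane, Adam19 was lower in neural epithelium than in mesenchyme (-1.43 ± 0.37, adjusted p = 0.0445), and Adam10, which cleaves N-cadherin, was higher at E10.5 than at E8.5 (1.33 ± 0.33, adjusted p = 0.0357). Of 5 measured nectin-list genes none passed both thresholds in the 4 limma comparisons with all libraries. The nearest was Pvrl3, a nectin, in neural epithelium against mesenchyme (0.96 ± 0.22, adjusted p = 0.0239, under 2-fold). Without the library labelled medial nasal prominence each partner named above was called in the same direction. Added then were, in neural epithelium against mesenchyme, Pvrl3 (1.01, adjusted p = 0.0118), Zeb2 (1.89, adjusted p = 0.0135), Snai2 (-2.28, adjusted p = 0.00651), Prickle1 (-1.12, adjusted p = 0.00642) and Adam12 (-1.07, adjusted p = 0.0356), and, in surface epithelium against mesenchyme, Mllt4 (1.11, adjusted p = 0.04), Twist1 (-3.72, adjusted p = 0.0023) and Lix1l (-1.89, adjusted p = 0.043). Cdh5, the vessel cadherin, outside the rule, was at 1.97 to 15.9 in the 8 mesenchymal libraries and at 1 to 1.40 in the others.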

How the data were processed

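Total RNA from 16 embryonic regions was read as single-end reads of 50 bases, per the labels. No read total per library was given, so depth is unknown and no counting interval was formed. The submitters' processing notes name Bowtie, TopHat, TopHat2, Cufflinks and the build mm9. Annotation and filters were not given in the sources used here, nor were tool versions. The deposited values are a ratio, as read from the values: the authors' files give every one of the 15876 genes a median of 1 over the 16 libraries (largest deviation 1.5e-07), and 8794 genes share their lowest value between libraries. The unit before that division is not stated, and the planned logarithm of a value plus a pseudocount could not be formed.

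Levels are multiples of the lowest value of a gene (tolerance 1e-06). Each library was centred on the median of the 7082 genes whose lowest value was not shared. Class differences were fitted with limma (version 3.58.1, R 4.3.3, mean-variance trend) on log2 ratios of 4 groups, neural being the mean of both neural groups, for 12851 genes above their lowest value in at least 3 libraries, with Benjamini-Hochberg adjustment over all of them. The fit was also run on simulated data with normal noise. Those data had no values tied at a lowest value and no library against its label. The simulation therefore does not show how the fit behaves under these 2 conditions. Where every library of a class sat at the lowest value, a stated fold is a lower bound taken from levels. Fitted log2 differences are also printed for some such genes. Examples are Cdh13, Cdh20 with stage as a covariate, Fat3 within E10.5 and Pcdh19 between the neural stages. Those differences include the centring of values at the lowest level, so they are not measured sizes. Single libraries were compared for genes with a level of 5 or more in the higher library and a fold of 2 or more. Alternatives were values as deposited, stage as a covariate, E10.5 only, other filters, log2 of level plus 1, and each library left out.

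Named were the members called in any comparison and 26 symbols listed in advance, of which Cdh15, Fat2 and Dchs2 were not analysed here, plus members with a level of 5 or more and 4-fold above every other library; of each partner list at most 4 called genes were to be named. Pcdh9, Pcdh11x, Cdh24, the untested members and the partners added without the library labelled medial nasal prominence were named after their values were seen. The members and lists were chosen with earlier results of these data known.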

Additional observations from a re-analysis of the deposited data

Results flagged for a closer look

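Among the 8 libraries of the mesenchymal class, 24 members were looked at for a library far from the rest, by the gap to its nearest neighbour divided by the whole range (above 0.526). For values without ties that limit is passed in about 1 of 20 groups, a rate that does not hold here, since many levels tie at 1 and any value above 7 tied ones passes. There were 10, of which 9 were the library labelled medial nasal prominence. Its level was 9.07 for Cdh2, against 1 to 3.77 in the other 7, 21.3 for Celsr2, against 1 to 2.50, and 5.59 for Fat3, against 1 to 1.54. It was 4.52 for Pcdh10, against 1 to 1.61. For Cdh4 (3.03), Cdh7 (3.24), Cdh8 (4.91), Celsr1 (1.39) and Celsr3 (3.70) all 7 others were at the lowest value. The remaining one was Cdh3 in cranial mesenchyme, at 1.54, against 1 to 1.03 in the other 7, and 12 surface epithelium genes were listed as markers of which 11 were measured, with a mean log2 level of 0.189 in that library, the highest of the mesenchymal class, where the others had 0 to 0.148. The part of such cells was not tested.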

How the results depend on the processing

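Over the alternatives no difference of a member called with all libraries changed direction. Differences that were not called were not checked in this way. Among them Celsr3, neural minus mesenchymal, went from -0.099 to 0.093 without the library labelled medial nasal prominence. Of the values of called members, 70 kept their side of the threshold and 28 lost it over the alternatives other than leaving out each library in turn. These include the fit without the library labelled medial nasal prominence, in which every call was kept, and the combinations chosen after seeing the data. Over fits with 1 library left out in turn, where the fit without that library is counted again, 156 kept it and 46 lost it. Genes called, neural minus mesenchymal, were 342 (139 higher, 203 lower), and as deposited 189 (97, 92), with stage as a covariate 169, on log2 of level plus 1 124, without the library labelled medial nasal prominence 607, within E10.5 0. Chosen after seeing the data were combinations without that library: E10.5 563, stage 613, as deposited 533 (333, 200). Members called, 6, became 3 on log2 of level plus 1, 0 within E10.5, and 10 as deposited without that library. Surface epithelium minus mesenchymal, 90 (70, 20), became as deposited 204 (191, 13), stage 153, log2 of level plus 1 180 (174, 6), without that library 216 (130, 86), E10.5 6, and without that library stage 368, as deposited 402 (355, 47); members, 1, became 2, 2, 2, 3, 0, 6 and 5 in the same order. Neural minus surface, 68 (12, 56), became as deposited 166 (9, 157), log2 of level plus 1 159 (8, 151; 4 members, against 2) and without that library 129. Neural E10.5 minus E8.5, 573 (278, 295), became as deposited 113 (40, 73; 2 members, against 4), log2 of level plus 1 79 (28, 51; 1 member) and without that library 945. The cause was not tested.

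With 1 library left out in turn, genes and members called ranged over 178 to 607 and 4 to 9 (neural minus mesenchymal), 14 to 216 and 1 to 3 (surface minus mesenchymal), 13 to 129 and 0 to 3 (neural minus surface) and 2 to 961 and 0 to 5 (neural stages, lowest without the non-floor plate). A class left with 1 library was assumed to vary like the others. Cdh2, Celsr2, Dchs1 and Pcdhga11 (neural minus mesenchymal) and Cdh3 (surface minus mesenchymal) were called in 16 of 16 such fits. No paired analysis was possible because the labels give no replicate numbers. Values at the lowest level hide differences below it.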
